A study of Rattus norvegicus with 6 samples.

Results

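The miR-181 family was examined in small RNA sequencing of the lumbar spinal cord from 3 rats with bone cancer pain (BCP) and 3 sham-operated rats, with 1 library per rat. Its members were taken as every row of the deposited table whose name begins with rno-miR-181a, rno-miR-181b, rno-miR-181c or rno-miR-181d, for any precursor and arm. This gave 10 of the 753 known mature miRNAs listed, 4 of them 5p arms and 6 of them 3p arms. The BCP rats had received living Walker 256 breast cancer cells, a rat mammary carcinoma line, in the marrow cavity of the left tibia, and the sham-operated (sham) rats had received the same cells killed by heat, so the controls carried dead tumor cells and the same surgery. The cord on the injected side was taken without meninges on day 14. The labels give the strain as Wistar, whereas the methods of the study name female Sprague Dawley rats. No age was given in the sources used here. The table held between 13464349 and 23770677 counts per library, so that 3 counts, taken as the smallest amount distinguishable from 0, corresponded to between 0.126 and 0.223 counts per 1000000 counts of the library (CPM).

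A miRNA precursor is a hairpin from which a strand of the 5p arm or of the 3p arm can be loaded into an Argonaute protein. The loaded strand pairs with target mRNAs mainly through its seed, bases 2 to 8, and represses them. The strand that is kept is called the guide, and the other, which is usually degraded, the passenger. The miR-181 family is expressed in brain and in lymphoid tissue. It has been studied in lymphocyte development, where miR-181a tunes the sensitivity of T cell receptor signalling, and in astrocytes and other glia, where it has been linked to cytokine responses and to cell survival after injury.

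The mature sequences are shown because the family is defined by its seed and because its members differ from each other by very few bases, which limits how well reads can be told apart. They are RefSeq sequences of the rat assembly GRCr8, written 5′ to 3′ with the seed in capitals, and were found for 9 of the 10 members. The 4 members of the 5p arm share the seed ACAUUCA, and none of the 688 miRNAs of the table with a RefSeq sequence held this seed except these 4.
rno-miR-181a-5p: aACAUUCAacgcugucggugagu
rno-miR-181b-5p: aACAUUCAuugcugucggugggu
rno-miR-181c-5p: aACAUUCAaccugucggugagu
rno-miR-181d-5p: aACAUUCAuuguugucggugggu

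Counted from 1 at the 5′ end, miR-181b-5p differs from miR-181a-5p by A9U, C10U and A21G. miR-181d-5p differs from miR-181b-5p by C12U alone. miR-181c-5p equals miR-181a-5p without its base 11, and has 22 bases where the other 3 have 23. All of these differences lie outside the seed. How reads matching more than 1 of these sequences were assigned is not stated in the sources used here, so the split of counts between miR-181b-5p and miR-181d-5p in particular is uncertain to that extent.

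The 3p arms do not share the seed of the 5p arms. miR-181a-1-3p and miR-181c-3p have the seed CCAUCGA in common, differ by U16G and U19G, and come from precursors in different clusters. The other 3 with a sequence each have a seed found in no other miRNA of the table that had a sequence.
rno-miR-181a-1-3p: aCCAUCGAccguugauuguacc
rno-miR-181c-3p: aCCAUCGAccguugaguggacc
rno-miR-181a-2-3p: aCCACCAAccguugacugu
rno-miR-181b-1-3p: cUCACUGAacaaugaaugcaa
rno-miR-181d-3p: cCACCGGGggaugaauguca

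The genes lie in 3 pairs in GRCr8. Mir181a-1 neighbours Mir181b1, Mir181a2 neighbours Mir181b2 within the bounds of Nr6a1, which encodes an orphan nuclear receptor, and Mir181c neighbours Mir181d. The sequence of miR-181a-5p is held by Mir181a-1 and by Mir181a2, and Mir181b2 holds that of miR-181b-5p as Mir181b1 does, so counts of these 5p arms cannot be divided between the genes, whereas the 3p arms differ. Coordinates are not given, because the authors mapped reads to Rnor_6.0, another assembly.

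The family was dominated by miR-181a-5p and miR-181b-5p. The 10 members together took 3.04%, 2.74% and 2.64% of all counts in BCP rats 1, 2 and 3, against 3.17%, 3.43% and 2.89% in sham rats 1, 2 and 3. The mean share was 2.81% ± 0.210 (SD, n = 3 rats) for BCP against 3.16% ± 0.271 (SD, n = 3 rats) for sham, and the ranges overlapped because BCP rat 1 was above sham rat 3. The 5p arms made up between 97.7% and 98.4% of the family's counts in every library.

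miR-181a-5p ranked 13 among the 753 miRNAs by mean CPM after TMM normalization, a scaling that sets the bulk of miRNAs equal between libraries. It had 495566, 253203 and 291606 counts in BCP rats 1, 2 and 3, against 305107, 362756 and 277915 in sham rats 1, 2 and 3. It alone held between 67.3% and 69.0% of the family's counts. miR-181b-5p ranked 29, with 195780, 97674 and 110006 counts in BCP rats, and 128337, 143363 and 109330 in sham rats. miR-181a-5p exceeded miR-181b-5p by a factor of 2.38 to 2.65 in every library.

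miR-181d-5p stood a step lower at rank 87. It had 16805, 8949 and 10880 counts in BCP rats, and 10751, 11255 and 11120 in sham rats. miR-181b-5p exceeded it by a factor of 9.83 to 12.7 within libraries. miR-181c-5p was the scarcest of the 5p arms, at rank 237, with 976, 629 and 758 counts in BCP rats, and 574, 621 and 698 in sham rats. miR-181d-5p exceeded miR-181c-5p by a factor of 14.2 to 18.7, although their genes are neighbours. The order of the 4 5p arms was the same in all 6 libraries.

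The arms of the precursors were used very differently. For miR-181a, the 3p arms of both precursors together made up between 2.08% and 2.91% of the counts of the hairpins, and for miR-181b between 0.030% and 0.0896%. For miR-181d the 3p arm made up between 0.0643% and 0.101%. For miR-181c it made up between 54.4% and 58.0%, so that miR-181c-3p was above miR-181c-5p in each of the 6 libraries. The counts of miR-181c-3p were 1295, 749 and 943 in BCP rats, and 793, 802 and 879 in sham rats, which exceeded miR-181c-5p by a factor of 1.19 to 1.38. In this table miR-181c was therefore the precursor without a dominant 5p arm.

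The 3p arms also separated the genes that share miR-181a-5p. miR-181a-1-3p, from Mir181a-1, had 12250, 7375 and 8456 counts in BCP rats, and 7553, 7618 and 8263 in sham rats. miR-181a-2-3p, from Mir181a2, had 152, 94 and 94 counts in BCP rats, and 76, 74 and 64 in sham rats. miR-181a-1-3p took between 98.7% and 99.2% of the counts of the 2 arms. The RefSeq entry of miR-181a-2-3p has 19 bases and that of miR-181a-1-3p has 22, while the study identified known miRNAs at a length of 21 to 22 nucleotides. Of the 19 miRNAs of the table with a 19-base entry, 10 were listed at 0 in every library, against 14.0% of the 22-base entries. Entries of 23 bases, the length of miR-181a-5p, held 17.9% of all counts, so they were not left out. The part of read length in the low count of miR-181a-2-3p was not tested.

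The remaining 3p arms were rare. miR-181b-1-3p had 91, 55 and 56 counts in BCP rats, and 54, 43 and 97 in sham rats, the highest value being that of sham rat 3. miR-181d-3p had 17, 7 and 7 counts in BCP rats, and 7, 11 and 9 in sham rats. miR-181b-2-3p had 1 count in sham rat 3 and 0 in the other 5 libraries, within the limit of 3 counts. A listing at 0 in this table does not show absence, since 150 miRNAs were listed at 0 in every library, among them miR-21-5p, miR-142-3p and miR-451-5p, which are usually abundant in glia, leukocytes and red cells. miR-3570, whose annotated sequence is the exact reverse complement of all 22 bases of miR-181a-1-3p, was also listed at 0 in every library.

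**Figure D1:**
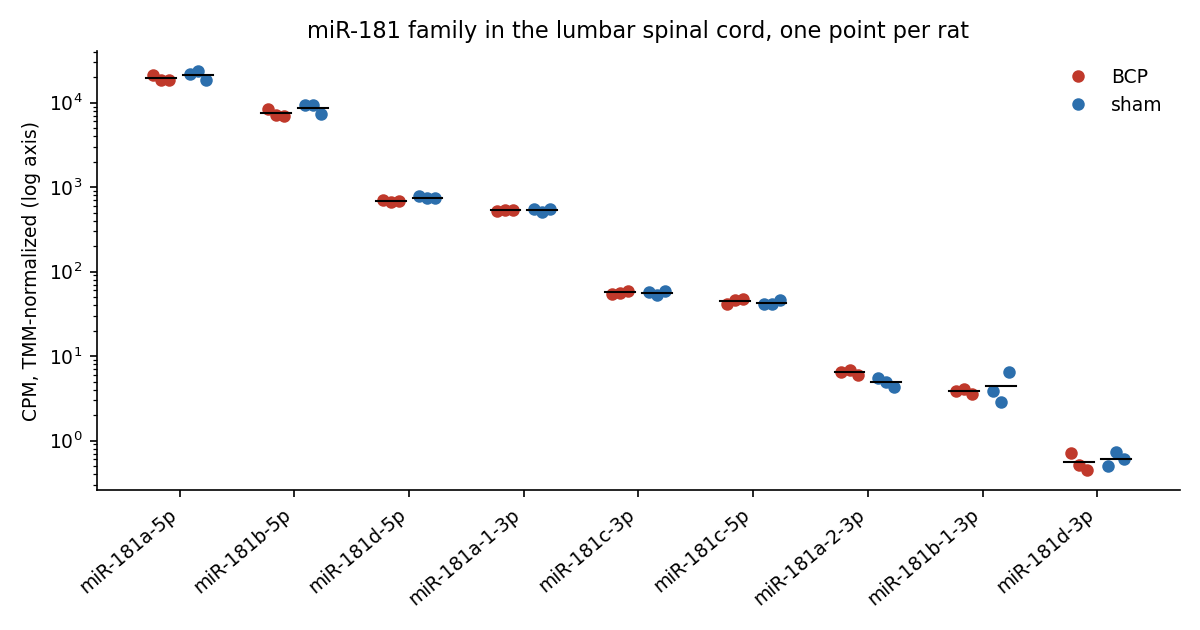
TMM-normalized CPM (log axis) of the 9 members with counts in every library, with 1 point per rat, red for BCP and blue for sham rats, and a black line at each group mean (n = 3 rats). The levels fall from means near 20425 CPM for miR-181a-5p to 0.585 CPM for miR-181d-3p, and the groups lie close together at each member.

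Levels in the order of mean CPM were separated beyond the spread between libraries for most neighbours. Each of the 5 steps from miR-181a-5p down to miR-181c-5p was in the same order in 6 of 6 libraries. The exception lower down was miR-181a-2-3p against miR-181b-1-3p, whose order held in 5 of 6 libraries and turned in sham rat 3. The smallest of the steps held in all libraries were those from miR-181c-3p to miR-181c-5p, at 1.28-fold of the mean CPM, and from miR-181d-5p to miR-181a-1-3p, at 1.35-fold.

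The comparison of BCP with sham rats asks which miRNAs of the cord differ on day 14 of tumor growth in the tibia. No member of the miR-181 family passed the test. The comparison used edgeR's quasi-likelihood test on the counts of the 459 miRNAs past a filter on low counts, with Benjamini-Hochberg adjustment over all of them, and a miRNA counted as called when its adjusted p was below 0.05 and its log2 fold change beyond ±0.8, the study's own thresholds. This called 16 miRNAs, or 3.49% of those tested, and 0 of the 8 members tested. miR-181d-3p and miR-181b-2-3p did not pass the filter. At an adjusted p below 0.05 with any fold change, 3.92% of all tested miRNAs and 0 members passed, and 0 members passed in DESeq2, limma-voom or edgeR's exact and likelihood ratio tests. At an unadjusted p below 0.05, 13.1% of all tested miRNAs and 1 of the 8 members passed in edgeR, the member being miR-181a-2-3p, while 0 members did so in DESeq2. The groups did not overlap for 2 of the 8 members, against 18.5% of all tested miRNAs. The members' log2 fold changes were below 0 for 5 and above 0 for 3, with a median of -0.067, against a median of -0.0034 over all tested miRNAs. In bulk tissue, fewer cells of a type and less RNA per cell cannot be told apart.

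miR-181a-5p was at 21019, 18649 and 18443 CPM in BCP rats, and at 21997, 23858 and 18586 CPM in sham rats. Sham rat 3 lay within the BCP range and the groups overlapped. The group levels were 19370 ± 1432 CPM and 21480 ± 2674 CPM (SD, n = 3 rats each), with a log2 fold change of -0.15 (SE 0.114, 95% interval -0.41 to 0.11, edgeR adjusted p = 0.647).

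miR-181b-5p was at 8304, 7194 and 6958 CPM in BCP rats, and at 9253, 9429 and 7312 CPM in sham rats. Its pattern followed that of miR-181a-5p, with sham rat 3 again among the BCP values. The log2 fold change was -0.21 (SE 0.125, 95% interval -0.50 to 0.077, edgeR adjusted p = 0.546). Without sham rat 3 the log2 fold changes were -0.35 for miR-181b-5p, with an adjusted p of 0.0721 in edgeR, and -0.28 for miR-181a-5p, with an adjusted p of 0.101. Leaving out sham rat 2 gave -0.071 for miR-181a-5p and -0.15 for miR-181b-5p, with adjusted p of 0.991 and 0.903 in edgeR.

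miR-181d-5p was at 713, 659 and 688 CPM in BCP rats, and at 775, 740 and 744 CPM in sham rats. Every BCP rat was below every sham rat, and this was also so with CPM of the library total. Groups that do not overlap with BCP below were found for 5.23% of all tested miRNAs. The difference was small, with group levels of 687 ± 26.9 CPM and 753 ± 19.2 CPM (SD, n = 3 rats each) and a log2 fold change of -0.13 (SE 0.0939, 95% interval -0.35 to 0.084, edgeR adjusted p = 0.611).

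Both mature strands of miR-181c and the 3p strand of miR-181a-1 differed between the groups by less than the spread between rats. miR-181c-5p was at 41.4, 46.3 and 47.9 CPM in BCP rats, and at 41.4, 40.8 and 46.7 CPM in sham rats, with a log2 fold change of 0.073 (95% interval -0.21 to 0.36, edgeR adjusted p = 0.829). With a rat left out this value ranged from 0.018 without sham rat 1 to 0.12 without BCP rat 1. miR-181c-3p was at 54.9, 55.2 and 59.6 CPM against 57.2, 52.7 and 58.8 CPM, with a log2 fold change of 0.0087 (95% interval -0.25 to 0.27). miR-181a-1-3p was at 520, 543 and 535 CPM against 545, 501 and 553 CPM, with a 95% interval of its log2 fold change from -0.23 to 0.23. The sign for miR-181c-3p changed with the scaling of the libraries and that for miR-181a-1-3p with the filter and the test, and neither miRNA was called under any alternative run.

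miR-181a-2-3p was the member furthest from equality. It was at 6.45, 6.92 and 5.95 CPM in BCP rats, and at 5.48, 4.87 and 4.28 CPM in sham rats. All 3 BCP rats lay above all 3 sham rats, which was the case for 13.3% of all tested miRNAs, and it remained so with CPM of the library total. The log2 fold change was 0.40 (SE 0.167, 95% interval 0.016 to 0.79), with an unadjusted p of 0.0431 and an adjusted p of 0.341 in edgeR's quasi-likelihood test. The counts were low. The exact Poisson interval of the lowest BCP library, BCP rat 3, ran from 4.74 to 7.17 CPM of the library total and that of the highest sham library, sham rat 1, from 4.19 to 6.65, so these intervals overlapped. Such intervals cover counting error only. Leaving out single rats placed the log2 fold change between 0.28 and 0.46, and the unadjusted p of edgeR was then at least 0.0509.

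miR-181b-1-3p was at 3.86, 4.05 and 3.54 CPM in BCP rats, and at 3.89, 2.83 and 6.49 CPM in sham rats. The sham rats spread on both sides of the BCP rats. Its log2 fold change of -0.21 had a 95% interval from -0.89 to 0.48, and became 0.15 without sham rat 3. For 7 of the 8 members tested the 95% interval lay within ±0.8 on the log2 scale, miR-181b-1-3p being the other.

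**Figure D2:**
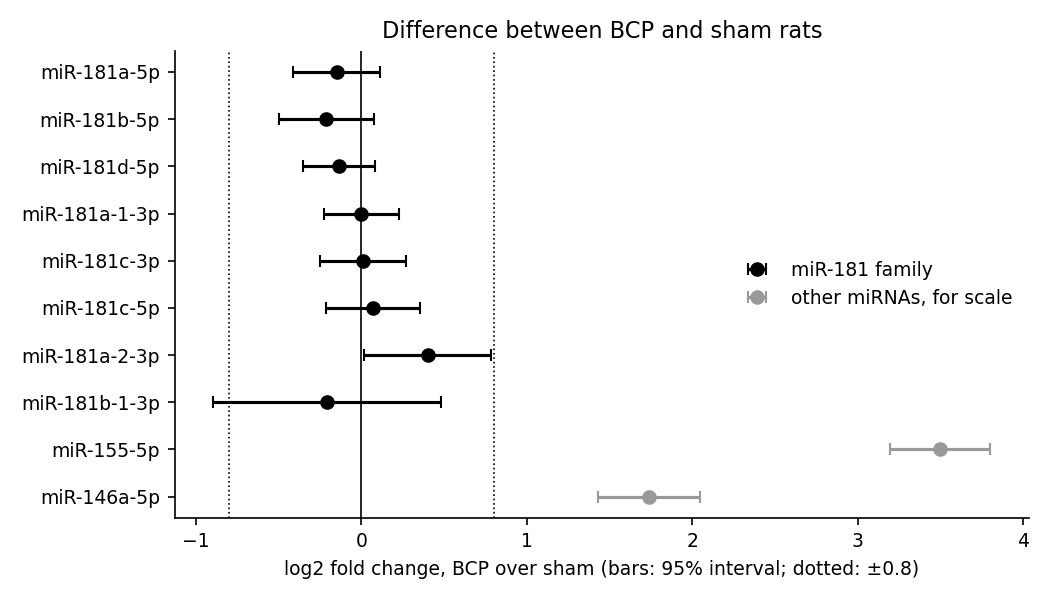
Log2 fold change of BCP over sham rats for the 8 tested members (black) and for miR-155-5p and miR-146a-5p (grey), with bars for the 95% interval from edgeR and dotted lines at ±0.8. The interval of every member but miR-181a-2-3p includes 0, while those of miR-155-5p (3.20 to 3.80) and miR-146a-5p (1.43 to 2.04) lie beyond the dotted line.

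The size of these differences can be read against other miRNAs linked to immune and glial function. Of 18 such miRNAs listed, 15 were tested, 4 were higher in the BCP group and 0 lower at both thresholds, and 3 were listed at 0. Calls in both directions made up 3.49% of all tested miRNAs, and nothing is read from the list's count, since the list was written with earlier results of these data known. The 4 were miR-155-5p and miR-146a-5p, both induced by NF-κB signalling, with log2 fold changes of 3.50 (adjusted p = 1.98e-06) and 1.74 (adjusted p = 2.64e-04) in edgeR's quasi-likelihood test, and the low-count miR-147 and miR-223-3p. The call of miR-223-3p was lost without BCP rat 2, with an adjusted p of 0.0614 in edgeR. The other members of the list included miR-146b-5p, at 3203 ± 209 CPM in the BCP group and 3200.2 ± 442 CPM in the sham group (SD, n = 3 rats each).

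**Figure D3:**
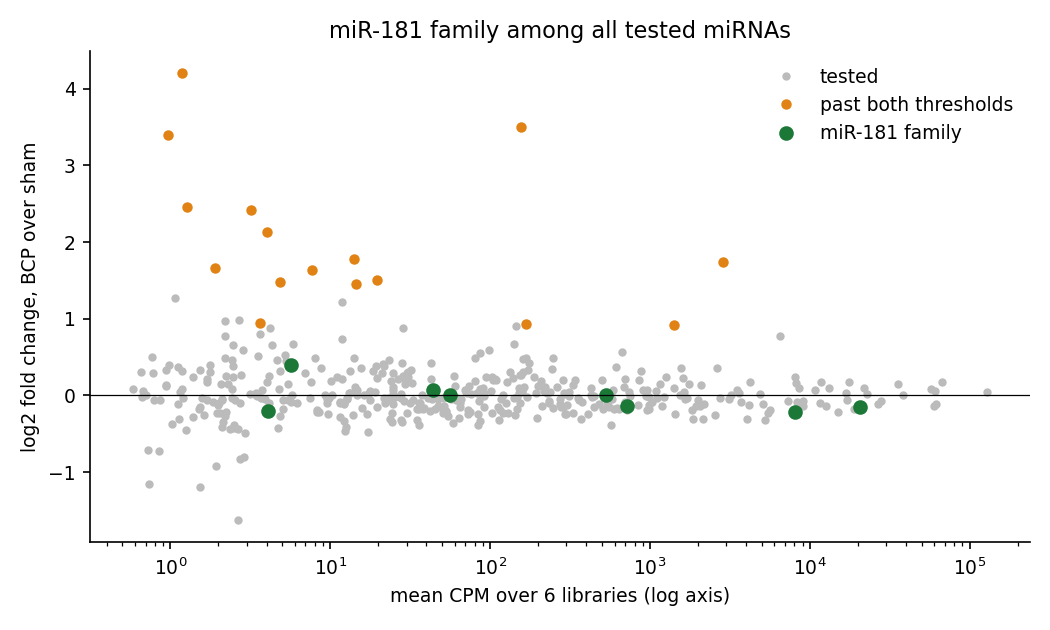
Log2 fold change of BCP over sham rats against mean CPM (log axis) for the 459 tested miRNAs, with the 8 tested miR-181 members in green and the 16 miRNAs past both thresholds in orange. The members extend over the range of abundance from 4.11 to 20425 CPM and lie near 0, with miR-181a-2-3p highest at 0.40.

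Ratios between members within a library do not depend on how libraries are scaled to each other. Of the 8 ratios tested, 2 did not overlap between the groups, and both involve miR-181a-2-3p. The log2 ratio of miR-181a-2-3p to miR-181a-5p was -11.67, -11.39 and -11.59 in BCP rats, and -11.96, -12.25 and -12.07 in sham rats. It differed by 0.55 between the group means of -11.55 ± 0.144 and -12.09 ± 0.145 (SD, n = 3 rats each). The two-sided exact permutation test gave p = 0.1, below which 3 rats against 3 cannot go, and 0.4 after Benjamini-Hochberg adjustment over the 8 ratios. The log2 ratio of miR-181a-1-3p to miR-181a-2-3p was 6.33, 6.29 and 6.48 in BCP rats, and 6.63, 6.68 and 7.0 in sham rats, a difference of -0.40 with the same exact permutation p of 0.1 and adjusted value of 0.4.

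The other ratios overlapped between the groups. The log2 ratio of miR-181b-5p to miR-181a-5p was the tightest, at -1.37 ± 0.0333 in the BCP group and -1.31 ± 0.0539 in the sham group (SD, n = 3 rats each), with an exact permutation p of 0.2. The log2 ratio of miR-181c-3p to miR-181c-5p was 0.32 ± 0.0785 in the BCP group and 0.39 ± 0.0690 in the sham group (SD, n = 3 rats each), with an exact permutation p of 0.4. The remaining 4 ratios had exact permutation p-values from 0.2 to 0.9. None of these tests could have gone below 0.1.

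**Figure D4:**
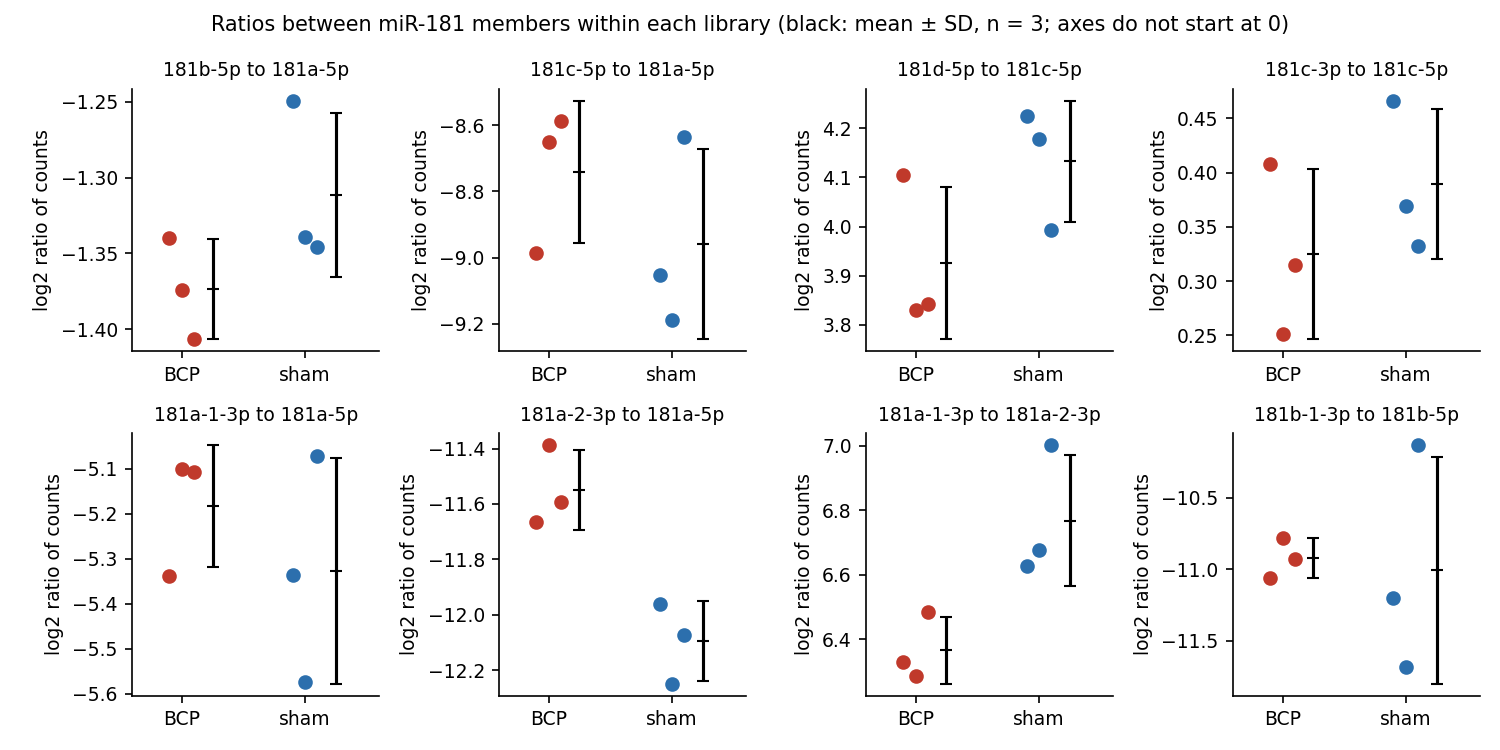
Log2 ratio of counts between 2 members in each library, in 8 panels with separate axes that do not start at 0, with 1 point per rat for BCP (red) and sham (blue) rats and the mean ± SD in black (n = 3 rats). The groups do not overlap in the 2 panels of the lower row that contain miR-181a-2-3p.

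The members differed in how they varied from rat to rat. miR-181a-5p and miR-181b-5p had nearly the same profile, the SD of their log2 CPM difference over the 6 libraries being 0.0525, which placed miR-181b-5p at rank 12 in likeness to miR-181a-5p among 457 miRNAs compared. For miR-181c-5p the same SD to miR-181a-5p was 0.26, close to the median of 0.25 over all miRNAs compared. The 3 miRNAs outside the family most like miR-181a-5p were miR-323-3p, miR-99b-5p and miR-134-5p, with SDs of 0.0236, 0.0265 and 0.0287. Those most like miR-181c-5p were miR-411-3p, miR-24-3p and miR-10a-5p, with SDs of 0.0499, 0.0575 and 0.0602, and of the family miR-181c-3p ranked 10 and miR-181a-1-3p ranked 17. Of the other 3 tested members, miR-181d-5p was the closest to both. It ranked 104 in likeness to miR-181a-5p and 98 to miR-181c-5p. Its SDs of 0.124 and 0.169 were below the medians of 0.25 and 0.27 over all miRNAs compared. The low-count miR-181a-2-3p ranked 291 and 231, and miR-181b-1-3p ranked 373 and 337. The points of these comparisons share the same 6 libraries and their depth.

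The variation of miR-181a-5p, miR-181b-5p and miR-181c-5p ran across the groups. That of miR-181d-5p and miR-181a-2-3p included the difference between BCP and sham rats, whose values did not overlap. Relative to its mean over the 6 libraries, the log2 CPM of miR-181a-5p was 0.23 higher in sham rat 2 and 0.11 higher in sham rat 1, and 0.13 lower in sham rat 3. The SD of miR-181a-5p between rats was 7.39% of its mean in the BCP group and 12.4% in the sham group, against 2.25% and 5.21% for miR-181a-1-3p. The 3 libraries lowest in miR-181a-5p were those of BCP rats 2 and 3 and of sham rat 3. The same 3 libraries held the 3 highest values of 90 of the 459 tested miRNAs, or 19.6%, and the 3 lowest of 124, or 27.0%, so this division of the libraries was not particular to the family. Of the 18 tested cell type markers, 6 were highest there and 6 lowest. The 6 highest were miR-126a-3p and miR-126a-5p of endothelium, miR-137-3p of neurons, miR-219a-5p and miR-338-3p of oligodendrocytes, and miR-10a-5p of the HOX clusters. The 6 lowest were miR-128-3p of neurons, miR-219a-2-3p of oligodendrocytes, miR-196a-5p of the HOX clusters, miR-133a-3p and miR-206-3p of muscle, and miR-150-5p of lymphoid cells. Neuronal, oligodendrocyte and HOX cluster markers thus lay on both sides. miR-126a-3p, the most abundant endothelial marker listed, was at 17848, 19985 and 19580 CPM in BCP rats 2 and 3 and sham rat 3, against 13381, 16439 and 14106 CPM in BCP rat 1 and sham rats 1 and 2. The summed CPM of both endothelial markers ranged from 13531 to 20261 for BCP rats, with 14240 to 19845 for sham rats. The part of cell composition in the levels of miR-181a-5p was not tested.

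**Figure D5:**
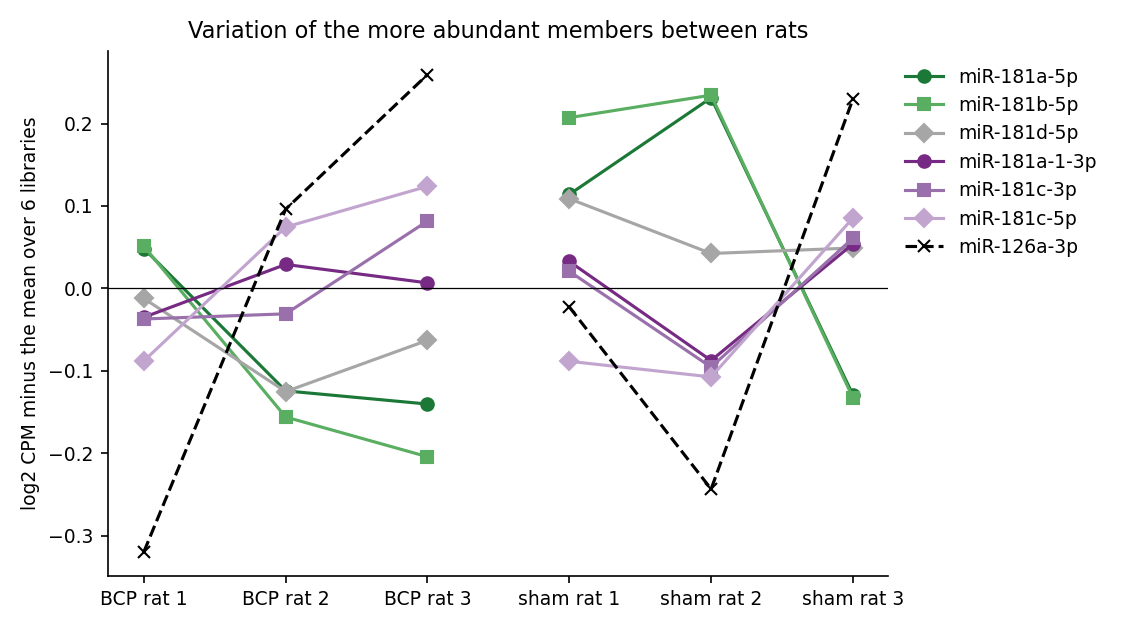
Log2 CPM of the 6 more abundant members and of miR-126a-3p in each library, minus the mean of that miRNA over the 6 libraries, with lines that only link the points of 1 miRNA within a group. miR-181a-5p and miR-181b-5p lie above 0 in BCP rat 1 and sham rats 1 and 2 and below 0 in the other 3, where miR-181c-5p and miR-126a-3p lie above 0.

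Markers of the other cell types that the tissue could hold are given by their levels. All 4 neuronal markers (summed 54217 to 63653 CPM in the BCP group and 57632 to 70519 CPM in the sham group), all 3 oligodendrocyte markers (12904 to 15234 CPM and 14182 to 17265 CPM) and all 3 miRNAs of HOX clusters, which mark spinal segments (20832 to 24310 CPM and 19292 to 21475 CPM), were detected and 0 of them were called in edgeR. These neuronal, oligodendrocyte and HOX cluster sums were mostly of miR-128-3p, miR-219a-2-3p and miR-10a-5p, in that order, so they say little of the scarcer markers. The 4 muscle markers summed to 109.5 to 115 CPM in the BCP group and to 97.4 to 119.7 CPM in the sham group, with 0 called. Of the 4 myeloid and lymphoid markers, miR-142-3p and miR-142-5p were listed at 0 and miR-223-3p was called higher, while their sum, mostly of miR-150-5p, ranged from 975.1 to 1283 CPM for BCP rats, with 1090 to 1379 CPM for sham rats. The 3 erythroid markers in the table were listed at 0 in every library, and miR-486 was not listed under that name.

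The Mir181c and Mir181d genes have Mir23a, Mir27a and Mir24-2 as their next miRNA neighbours in GRCr8, and the products of these neighbours, chosen after their values were seen, are given beside them. miR-27a-3p was at 1401, 1923 and 2232 CPM in BCP rats, and at 1040, 883 and 1005 CPM in sham rats. It was called higher in the BCP group, with a log2 fold change of 0.92 (95% interval 0.53 to 1.32, edgeR adjusted p = 0.0228). With all rats it was called in each of the 10 alternatives, with adjusted p from 6.39e-05 to 0.0460 across edgeR, DESeq2 and limma-voom. The call was lost in each of the 5 fits without BCP rat 2 or 3 or without sham rat 1, 2 or 3, where the adjusted p was at most 0.118 and the log2 fold change at least 0.76, and it held without BCP rat 1. miR-23a-3p had a log2 fold change of 0.31 (95% interval 0.073 to 0.55) and did not pass after adjustment (adjusted p = 0.197 in edgeR). miR-24-3p, at 3404, 3678 and 3893 CPM in BCP rats and 3657, 3376 and 3700 CPM in sham rats, overlapped between the groups, with a log2 fold change of 0.032 (95% interval -0.18 to 0.25, edgeR adjusted p = 0.935). The name miR-24-3p carries no precursor number, so its counts cannot be assigned to Mir24-2 alone. miR-24-2-5p also overlapped, with a log2 fold change of 0.31 (95% interval -0.15 to 0.76, edgeR adjusted p = 0.578). With a rat left out the log2 value of miR-24-2-5p ranged from 0.16 without BCP rat 3 to 0.48 without sham rat 3. For miR-27a-5p the difference was 0.74 on the log2 scale (95% interval 0.38 to 1.10), and its adjusted p of 0.0393 in edgeR passed while its fold change did not reach 0.8. With any single rat left out, the adjusted p of miR-27a-5p was at least 0.0531, and with all rats it was between 0.0501 and 0.0634 without the filter, under the stricter filter and under each of the other scalings. It was below 0.05 with all rats in DESeq2 (0.0104), limma-voom (0.0474), the replicate block (0.0221) and edgeR's exact and likelihood ratio tests (both 0.0018). miR-23a-5p, with 4 to 10 counts, was not tested. The intervals of miR-181c-5p, miR-181c-3p and miR-181d-5p all lay below those of miR-27a-3p and miR-27a-5p. They all overlapped those of miR-23a-3p, miR-24-3p and miR-24-2-5p. The differences between these miRNAs and the members were not tested.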

How the data were processed

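Small RNA of 6 rats was sequenced. The authors filtered reads with the FASTX Toolkit, mapped those of 18 to 40 nucleotides to Rnor_6.0 with Bowtie (Bowtie2 2.2.3 in the submitters' processing notes) and identified known miRNAs by length and miRBase. The deposited values are raw read counts, without normalization; 0 columns lacked a sample. Counts were analysed with edgeR 4.0.16 (filterByExpr with a minimum count of 10, TMM, quasi-likelihood test) in R 4.3.3. Standard errors and 95% intervals came from the log2 fold change and F statistic. Alternatives used DESeq2 1.42.0 and limma 3.58.1. Ratios used log2 of counts plus 0.5, required a mean of at least 10 counts, and were compared by exact permutation (scipy 1.17.1). The test was tried on simulated data. Libraries of a group differed by a chi-square per degree of freedom of 59.0 or more, so none was a copy. Named miRNAs were the members, the 3 most like miR-181a-5p and miR-181c-5p, the comparison miRNAs miR-155-5p and miR-146a-5p, and called members of the immune and glial list. Others (miR-146b-5p, miR-150-5p, cell type markers such as miR-126a-3p, miR-3570, neighbours of Mir181c, miRNAs listed at 0) were named after their values were seen. The members and lists were chosen with earlier results of these data known.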

Additional observations from a re-analysis of the deposited data

How the results depend on the processing

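The number of members called, 0, and the number with an adjusted p below 0.05, 0, were the same under every alternative run, the smallest adjusted p being 0.254 with all rats and 0.0721 with a rat left out. Over all miRNAs, 16 were called, against 25 with edgeR's likelihood ratio test and from 8 to 20 with a rat left out (8 without BCP rat 2, 10 without BCP rat 3 and 9 without sham rat 1). As a share of the reads the study assigned to miRBase, the family took 2.21% in the BCP group and 2.51% in the sham group. With a rat left out, its share of all counts was 2.69% to 2.89% for BCP rats, with 3.03% to 3.30% for sham rats. Signs near 0 were unstable. The log2 fold change of miR-181a-1-3p, -0.00056, was 0.0026 under the filter of 10 counts per library, 2.1e-06 with limma-voom and 0.00049 with the replicate block, and from -0.048 to 0.00058 with a rat left out. That of miR-181c-3p was -0.0071 when scaled by total counts, -0.016 under RLE scaling and -0.016 in DESeq2, and -0.021 with miRBase reads as library size, and from -0.041 to 0.029 with a rat left out. That of miR-181b-1-3p ranged from -0.45 to 0.15 and the difference in its log2 ratio to miR-181b-5p from -0.26 to 0.52 with a rat left out. The member past an unadjusted p of 0.05, miR-181a-2-3p, was not past it with DESeq2, the exact test, the replicate block or any of the 6 fits with a rat left out. Without sham rat 3, miR-181a-5p and miR-181b-5p were past it instead. Rats with the same number are different animals. Their deviations from the group means correlated at -0.028, -0.43 and 0.61, and not every rat correlated best with its own number. With 3 rats per group such correlations depend on each other, so they cannot decide whether the numbers mark a pairing. With the replicate block 0 members and 18 miRNAs were called. Of the miRNAs outside the family, miR-146b-5p had log2 fold changes of -0.0035 with no filter, -0.0084 by total counts, -0.021 under RLE scaling and in DESeq2, -0.023 with miRBase reads as library size, and from -0.13 to 0.088 with a rat left out, and miR-24-3p from -0.025 to 0.066. Counting error weighs most on the members with the fewest counts: miR-181b-2-3p (0 to 1 per library), miR-181d-3p (7 to 17), miR-181b-1-3p (43 to 97) and miR-181a-2-3p (64 to 152).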
